A study of Mus musculus with 6 samples.

Results

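The T cell receptor complex and its coreceptors are described here by 10 genes chosen by name: the CD3 chains *Cd3d*, *Cd3e* and *Cd3g*, the zeta chain *Cd247*, the receptor alpha constant region *Trac*, the coreceptors *Cd8a*, *Cd8b1* and *Cd4*, and the kinases *Lck* and *Zap70*. All 10 were found among the 54309 gene identifiers of the table, and all 10 were among the 13963 genes tested, whose mean reached 10 normalized counts (reads divided by a size factor for each tumor). Bulk RNA was sequenced from subcutaneous tumors of MCA205, a fibrosarcoma cell line derived from a C57BL/6 mouse with 3-methylcholanthrene, so that each value sums over tumor cells, macrophages, T cells and every other cell of the tissue. Female C57BL/6J mice aged 7 weeks were each inoculated with 1000000 cells in the right flank on day 0. The treated group of 3 drank FF-10101 at 0.1 mg/mL from day 1, the control group of 3 drank water without it, and tumors were taken on day 8. FF-10101 is a covalent inhibitor of the receptor tyrosine kinase FLT3 that also inhibits CSF1R, the receptor on which macrophages depend, and both groups carried tumors of the same single cell line.

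The alpha and beta chains of the T cell receptor bind peptide on MHC molecules but carry no signaling tail of their own. They are assembled at the membrane with the CD3 chains and the zeta chain, whose tails hold the tyrosine motifs that start the signal. CD8 binds MHC class I on target cells and CD4 binds MHC class II on antigen-presenting cells, and each brings the kinase LCK to the receptor. LCK phosphorylates the motifs, ZAP70 docks on them, and ZAP70 in turn phosphorylates the adaptor LAT. In a tumor, transcripts of these genes mark infiltrating T cells, although other cell types, such as NK cells and dendritic cells, express some of them. Fewer T cells and less RNA per T cell cannot be told apart in bulk RNA.

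The promoters of 4 members are shown, those of the neighboring CD3 genes and that of *Cd8a*. Promoter sequences of 7 members, *Cd3d*, *Cd3e*, *Cd3g*, *Cd247*, *Cd8a*, *Lck* and *Zap70*, were matched by symbol in RefSeq (build GRCm38.p6), each from 250 bases before to 50 bases after an annotated start site and 10 promoters in all. *Cd3g* and *Cd3d* are transcribed away from each other from start sites 1355 bases apart, on the minus and plus strands of chromosome 9, and the start site of *Cd3e* lies 27825 bases from that of *Cd3d*. Each run reads 5′ to 3′ on the strand of its gene, and capitals mark matches, on either strand, to AGGAAG (core of ETS factors), TGTGGT (RUNX), CTTTGA (TCF/LEF), CAGCTG and CACCTG (E boxes, read by E proteins), none of which overlap in these promoters.
Cd3g, chr9:44980382-44980681, minus strand: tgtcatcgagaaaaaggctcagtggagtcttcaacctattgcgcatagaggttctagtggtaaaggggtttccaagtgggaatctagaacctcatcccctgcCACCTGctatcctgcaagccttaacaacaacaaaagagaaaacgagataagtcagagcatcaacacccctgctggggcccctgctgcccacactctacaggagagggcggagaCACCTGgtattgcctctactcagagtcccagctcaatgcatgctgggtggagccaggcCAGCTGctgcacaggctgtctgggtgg
Cd3d, chr9:44981536-44981835, plus strand: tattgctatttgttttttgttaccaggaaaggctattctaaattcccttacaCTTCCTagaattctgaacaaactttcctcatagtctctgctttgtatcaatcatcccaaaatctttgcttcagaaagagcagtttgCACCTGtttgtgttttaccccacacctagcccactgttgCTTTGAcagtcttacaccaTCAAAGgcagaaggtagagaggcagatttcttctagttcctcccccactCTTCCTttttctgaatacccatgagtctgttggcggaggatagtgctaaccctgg
Cd3e, chr9:45009562-45009861, minus strand: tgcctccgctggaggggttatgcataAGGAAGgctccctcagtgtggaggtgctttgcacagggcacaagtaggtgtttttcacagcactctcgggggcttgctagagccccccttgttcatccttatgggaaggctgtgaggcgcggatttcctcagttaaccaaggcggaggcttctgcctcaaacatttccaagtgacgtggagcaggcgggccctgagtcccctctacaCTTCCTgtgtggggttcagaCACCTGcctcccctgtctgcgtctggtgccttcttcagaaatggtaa
Cd8a, chr6:71373177-71373476, plus strand: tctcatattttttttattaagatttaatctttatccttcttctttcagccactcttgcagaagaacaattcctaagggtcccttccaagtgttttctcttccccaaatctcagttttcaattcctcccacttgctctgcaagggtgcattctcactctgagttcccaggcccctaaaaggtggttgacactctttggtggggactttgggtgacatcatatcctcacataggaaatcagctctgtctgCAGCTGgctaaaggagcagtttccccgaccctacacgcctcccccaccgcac
The E box CACCTG was found in 8 of the 10 promoters and in 6 of the 7 genes, with *Cd8a* as the exception, and in 20.2% of the 32851 promoters of 300 bases in the same table. AGGAAG was found in 7 of the 10 promoters, those of 5 genes, without *Cd3g* and *Cd8a*, and in 35.4% of all. CTTTGA was found in 3 promoters (16.0% of all), and TGTGGT and CAGCTG in 2 each (16.8% and 16.3% of all). These are matches of letters and were not tested as sites.

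The 6 tumors held between 9143806 and 13258258 reads, the most in FF-10101 tumor 1, and between 18467 and 19440 genes with a read. A count of 0 allows up to 3 reads, or 2.29 to 3.38 normalized counts depending on the tumor, which covers counting error only. Member reads ranged from 26 to 557 per tumor. Limma gave control tumor 1 an array weight of 0.139, the lowest of the 6. Low weights also went to FF-10101 tumor 1 (0.406), control tumor 3 (0.475) and FF-10101 tumor 3 (0.859). Control tumor 2 (5.39) and FF-10101 tumor 2 (8.08) had the high ones. With control tumor 1 left out, the genes past an adjusted p of 0.05 numbered 3073 in place of 6. FF-10101 tumor 1 held 396 normalized counts of *Krt5* and 484 of *Krt14*, keratins of skin keratinocytes, against 0 in control tumors 1 and 2 and in FF-10101 tumors 2 and 3. Member values are therefore given with all 6 tumors and without control tumor 1.

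None of the 10 members differed between the groups in the test across all genes, and no member separated the FF-10101–treated from the control tumors completely. All 10 had a positive log2 fold change, from 0.25 for *Lck* to 1.20 for *Cd8b1*, with a median of 0.39 against 0.02 over all genes tested; 51.9% of all genes had a positive value. Of the 10, 0 passed an adjusted p of 0.05 (limma on log2(normalized count + 1), Benjamini-Hochberg; 0.0430% of all genes passed), and 0 passed an unadjusted p of 0.05 (8.77% of all genes passed in the higher direction). Adjusted p values ran from 0.386 to 0.786 in limma, and 0 members passed with limma-voom on the recovered reads. For 0 members did every FF-10101–treated tumor lie above every control tumor, as was so for 10.9% of all genes.

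**Figure D1:**
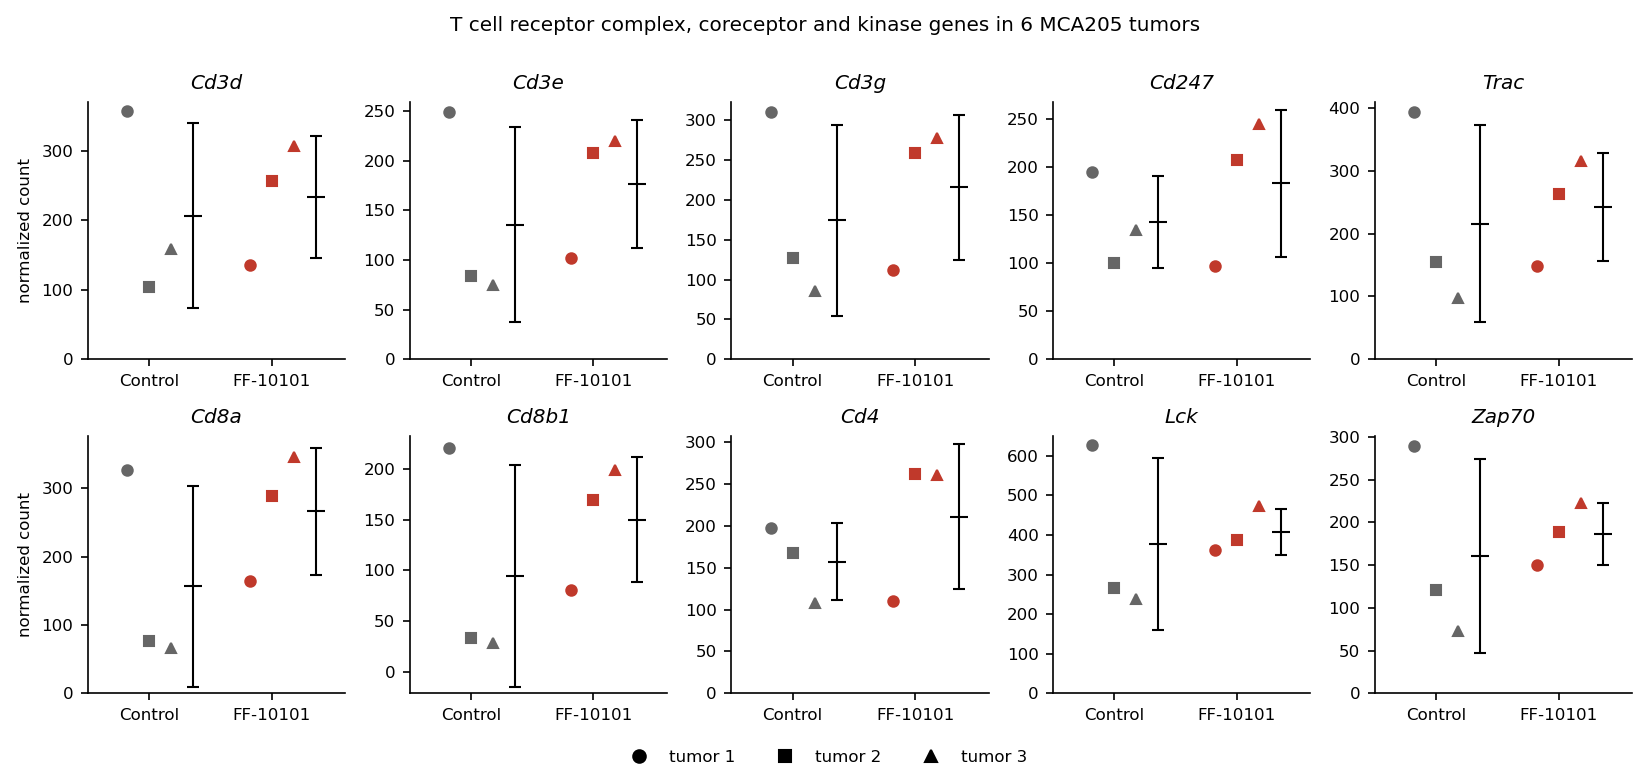
Normalized counts of the 10 members (vertical axes) in the 3 control tumors (gray) and the 3 FF-10101–treated tumors (red), with the mean ± SD of each group beside the points. Control tumor 1 lies above the other control tumors in all 10 panels, and FF-10101 tumor 1 is the lowest treated tumor in all 10.

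Control tumor 1 was the highest of its group and FF-10101 tumor 1 the lowest of its group in all members. Control tumor 1 lay above control tumors 2 and 3 in 10 of 10 members (44.6% of all genes) and was the highest of the 6 tumors in 7 of 10 (20.4% of all genes), with *Cd247*, *Cd8a* and *Cd4* as the exceptions. Among the treated tumors, FF-10101 tumor 1 was the lowest in 10 of 10 members (41.6% of all genes) and FF-10101 tumor 3 the highest in 9 of 10 (35.3% of all genes), *Cd4* being the exception. Control tumor 3 was under control tumor 2 in all but *Cd3d* and *Cd247*. FF-10101 tumors 2 and 3 lay above control tumors 2 and 3 in 10 of 10 (38.1% of all genes), and all 3 treated tumors did so in 5 of 10, *Cd3e*, *Cd8a*, *Cd8b1*, *Lck* and *Zap70* (28.4% of all genes). The mean of the members' centred log2 values was 0.77, −0.66 and −0.89 in control tumors 1, 2 and 3 and −0.38, 0.48 and 0.68 in FF-10101 tumors 1, 2 and 3. Across the 6 tumors, which share each library among all genes, the Pearson correlation between pairs of members ranged from 0.586 to 0.997 with a median of 0.899 over 45 pairs.

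The receptor chains overlapped between the groups, with intervals of the difference that include 0. *Cd3d*, the CD3 delta chain, held 357, 104 and 159 normalized counts in control tumors 1, 2 and 3 and 136, 256 and 308 in FF-10101 tumors 1, 2 and 3. Control tumor 1 was the highest and control tumor 2 the lowest, and the groups overlapped. The difference of 0.28 ± 0.47 on the log2 scale (SE, n = 3 and 3) was smaller than its error (limma, Benjamini-Hochberg adjusted p = 0.786). *Cd3e*, the epsilon chain that pairs with either of the other CD3 chains, held 249, 83.7 and 74.3 in the control tumors and 102, 207 and 219.55 in the FF-10101–treated tumors. All treated tumors lay above control tumors 2 and 3 and under control tumor 1, with a log2 fold change of 0.53 ± 0.50 (SE; limma, Benjamini-Hochberg adjusted p = 0.616). An exon of *Cd3e* overlaps the antisense gene *Gm48719* over 135 bases, and reads of the 2 cannot be told apart there without strand. *Cd3g*, the gamma chain, held 311, 127 and 85.4 in the control tumors and 111.5, 259 and 277 in the FF-10101–treated tumors. Here FF-10101 tumor 1 lay between control tumors 2 and 3, and the log2 fold change was 0.41 ± 0.52 (SE; limma, Benjamini-Hochberg adjusted p = 0.709). Summed, the CD3 chains came to 517 ± 346 normalized counts in the control and 626 ± 242 in the treated group (SD, n = 3 each; exact permutation test, two-sided p = 0.8, where 3 tumors against 3 cannot give a p under 0.1).

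*Cd247*, the zeta chain that carries most of the receptor's signaling motifs, held 195, 99.98 and 134 normalized counts in control tumors 1, 2 and 3 and 96.99, 207 and 245 in FF-10101 tumors 1, 2 and 3. FF-10101 tumors 2 and 3 were the highest of the 6 and FF-10101 tumor 1 the lowest, with a log2 fold change of 0.30 ± 0.39 (SE; limma, Benjamini-Hochberg adjusted p = 0.718). Its value is less certain than those of the CD3 chains, since 2136 bases of an exon of *Cd247* overlap *Pou2f1*, a broadly used transcription factor gene on the other strand, and the sources used here do not state that strand was kept. *Pou2f1* held 120.4, 191 and 122 in the control tumors and 166, 167 and 179 in the FF-10101–treated tumors, and its part in the values of *Cd247* was not tested. *Trac*, the constant region shared by all alpha chains, held 394, 155 and 97.6 in the control tumors and 148, 263 and 316 in the FF-10101–treated tumors. FF-10101 tumor 1 lay under control tumor 2, and the log2 fold change was 0.35 ± 0.51 (SE; limma, Benjamini-Hochberg adjusted p = 0.752).

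The CD8 chains had the largest differences of the members in log2 terms and also the widest spread between control tumors. *Cd8a*, the alpha chain of CD8, held 326, 77.2 and 66.6 normalized counts in control tumors 1, 2 and 3 and 165, 289 and 347 in FF-10101 tumors 1, 2 and 3. Each treated tumor lay above control tumors 2 and 3, while control tumor 1 was second only to FF-10101 tumor 3. The log2 fold change was 1.09 ± 0.59 (SE) with a 95% confidence interval from −0.27 to 2.45 (limma, Benjamini-Hochberg adjusted p = 0.386). *Cd8b1*, the beta chain that completes the CD8 of conventional cytotoxic T cells, held 221, 33.7 and 28.8 in the control tumors and 81.0, 169 and 199 in the FF-10101–treated tumors. Control tumor 1 was the highest and 7.06 times the mean of the other control tumors, the widest such gap among the members. The log2 fold change was 1.20 ± 0.75 (SE) with a 95% confidence interval from −0.52 to 2.93 (limma, Benjamini-Hochberg adjusted p = 0.448). Control tumors 2 and 3 held only 31 and 26 reads of *Cd8b1*, and a stretch of 139 bases of its transcript is 97.1% identical to one of *Srp72*. The log2 fold changes were smaller without either of the other control tumors, 0.78 for *Cd8a* and 0.79 for *Cd8b1* without control tumor 2 and 0.68 for each without control tumor 3, and *Cd8b1* was at 0.78 on the deposited log2 scale.

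*Cd4*, the coreceptor of helper and regulatory T cells, which some macrophages and dendritic cells also carry, held 197, 167 and 107.6 normalized counts in control tumors 1, 2 and 3 and 111, 262 and 260.4 in FF-10101 tumors 1, 2 and 3. FF-10101 tumors 2 and 3 were the highest of the 6, and FF-10101 tumor 1 lay next to the lowest, control tumor 3. The log2 fold change was 0.36 ± 0.38 (SE; limma, Benjamini-Hochberg adjusted p = 0.656), and control tumor 1 was 1.43 times the mean of the other control tumors, the narrowest such gap among the members.

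*Lck*, the kinase that opens the signal and the member with the most reads, held 627, 265 and 237 normalized counts in control tumors 1, 2 and 3 and 363, 386 and 472 in FF-10101 tumors 1, 2 and 3. The treated tumors lay between control tumor 1 and the other control tumors, close together at 407 ± 57.4 against 377 ± 217 in the control group (SD, n = 3 each). Its log2 fold change of 0.25 ± 0.35 (SE) was the smallest of the members (limma, Benjamini-Hochberg adjusted p = 0.745). *Zap70*, the kinase recruited to the phosphorylated chains, held 289, 120.6 and 73.2 in the control tumors and 149.7, 189 and 222 in the FF-10101–treated tumors. The order of the 6 tumors was that of *Lck*, and the log2 fold change was 0.43 ± 0.46 (SE; limma, Benjamini-Hochberg adjusted p = 0.659).

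Without control tumor 1, 4 of the 10 members were higher with FF-10101, *Cd8a*, *Cd8b1*, *Lck* and *Zap70*, in a comparison of 3 tumors with 2 in which 22.0% of all genes passed in either direction and 1678 of 13986 were higher. The log2 fold change was then 1.81 ± 0.31 (SE) for *Cd8a* (limma, Benjamini-Hochberg adjusted p = 0.00679) and 2.13 ± 0.38 (SE) for *Cd8b1* (limma, Benjamini-Hochberg adjusted p = 0.00816). It was 0.69 ± 0.17 (SE) for *Lck* (limma, Benjamini-Hochberg adjusted p = 0.0267) and 0.97 ± 0.27 (SE) for *Zap70* (limma, Benjamini-Hochberg adjusted p = 0.0382). *Cd3e* came next at 1.07 ± 0.33 (SE) and did not pass (limma, Benjamini-Hochberg adjusted p = 0.0523), and *Cd247* and *Cd4* had the smallest log2 fold changes, 0.55 and 0.54. The median over the members was 0.92 against 0.04 over all genes. With limma's array weights, 10 of 10 members were higher and 32.0% of all genes passed in that direction. That fit rests mostly on 1 tumor of each group, FF-10101 tumor 2 (weight 8.08) and control tumor 2 (5.39), and counted control tumor 1 least. In 2 members, *Cd247* and *Cd4*, FF-10101 tumors 2 and 3 lay above every control tumor, so that leaving out FF-10101 tumor 1 separated the groups, as it did in the higher direction for 20.0% of all genes. The call on the CD8 chains and the kinases thus rests on which tumors are counted, and the labels give no reason to leave out control tumor 1.

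**Figure D2:**
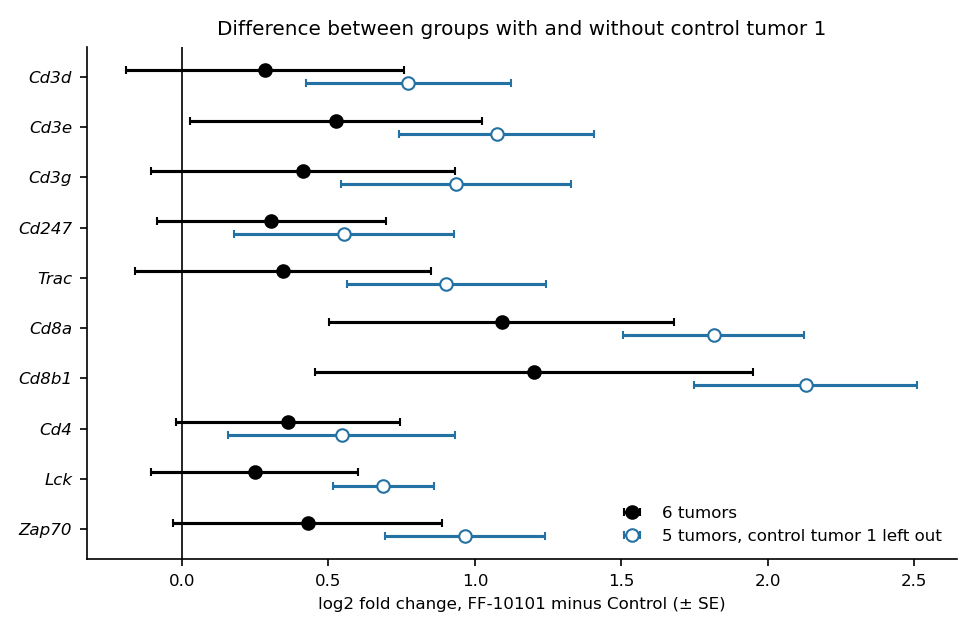
Log2 fold change (horizontal axis, FF-10101 minus Control, ± SE from limma) of the 10 members with all 6 tumors (filled circles) and with control tumor 1 left out (open circles). Each of the 10 values is higher without control tumor 1, and the CD8 chains lie farthest to the right in both fits, at 1.09 and 1.20 with 6 tumors and 1.81 and 2.13 with 5.

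Ratios of members within a tumor do not depend on the scaling of that tumor. Of 12 ratios, 1 separated the groups: *Cd8a* over *Cd3e* was 1.31, 0.923 and 0.897 in control tumors 1, 2 and 3 and 1.61, 1.39 and 1.58 in FF-10101 tumors 1, 2 and 3. Every treated tumor lay above every control tumor, control tumor 1 included, and the mean log2 ratio was 0.57 higher, or 1.48-fold (p = 0.1 in the two-sided exact permutation test, the lowest that 3 against 3 can give; 0.686 after Benjamini-Hochberg adjustment over 12 ratios). *Cd8b1* over *Cd3e* was 0.887 in control tumor 1, 0.410 and 0.396 in control tumors 2 and 3, and 0.793, 0.818 and 0.907 in the FF-10101–treated tumors, so that control tumor 1 overlapped the treated group (exact permutation test, two-sided p = 0.3). *Cd8a* over *Cd4* was 1.65, 0.464 and 0.622 in the control tumors and 1.49, 1.10 and 1.33 in the FF-10101–treated tumors. Control tumor 1 was thus the highest in this ratio while control tumors 2 and 3 were the lowest (exact permutation test, two-sided p = 0.4), and the log2 difference of 0.73 became 1.27 when control tumor 1 was left out and 0.35 when control tumor 2 was. That of *Cd8b1* over *Cd3e*, 0.68, was 1.06 without control tumor 1. *Cd8b1* over *Cd8a* was 0.677, 0.444 and 0.442 in the control tumors and 0.494, 0.588 and 0.576 in the FF-10101–treated tumors (exact permutation test, two-sided p = 0.8).

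**Figure D3:**
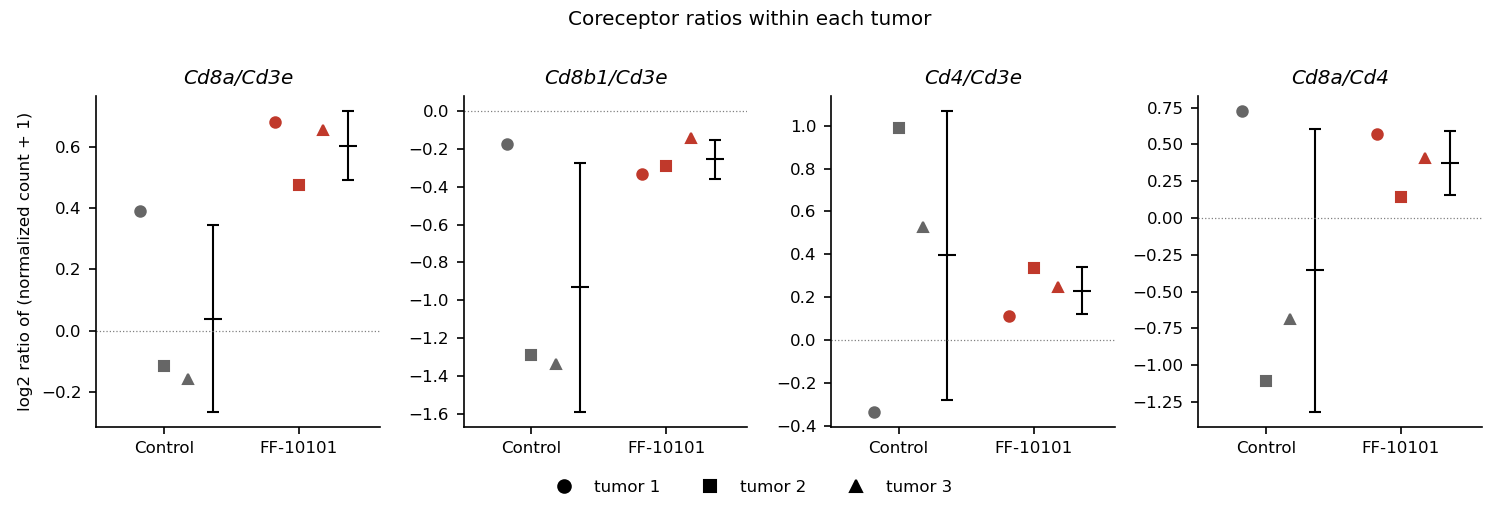
Log2 ratio of normalized counts plus 1 (vertical axes) within each control tumor (gray) and FF-10101–treated tumor (red), with mean ± SD. The groups are apart for *Cd8a* over *Cd3e*, with means of 0.04 and 0.61, and overlap for the other 3 ratios.

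The other chains and kinases did not separate from *Cd3e*. The log2 ratio of *Cd3d* to *Cd3e* differed by −0.24 between the groups, that of *Cd3g* by −0.11, *Cd247* by −0.22, *Trac* by −0.18, *Cd4* by −0.16, *Lck* by −0.28 and *Zap70* by −0.10, each with overlapping groups and an exact two-sided permutation p between 0.4 and 0.8. With 1 tumor left out, that of *Lck* ran from −0.09 to −0.55 (without FF-10101 tumors 2 and 1) and that of *Cd3d* from −0.02 to −0.40 (without control tumors 3 and 2), with a smallest p of 0.1. *Cd3e* over *Ptprc*, which encodes CD45 of all leukocytes, was 0.077, 0.059 and 0.064 in control tumors 1, 2 and 3 and 0.059, 0.089 and 0.078 in FF-10101 tumors 1, 2 and 3. *Ptprc* itself held 3237, 1443 and 1175 normalized counts in the control tumors and 1741, 2330 and 2844 in the FF-10101–treated tumors, in the same order of tumors as *Cd3e*, and its part in the members' values was not tested.

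Per length, *Trac* was the most abundant member in the control tumors at 231 ± 168 normalized counts per kb of its longest coding transcript (SD, n = 3), followed by *Lck* at 172 ± 99.5 and *Cd3g* at 170.5 ± 117. *Cd8a*, *Cd4* and *Cd247* were the lowest, at 50.1 ± 47.0, 50.6 ± 14.7 and 48.4 ± 16.2 (SD, n = 3). Neighbors in this order differed by less than their spread, and with the median length of a gene's transcripts *Cd3d* came to the top at 691 ± 445 normalized counts per kb (SD, n = 3).

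Reads were also found for the receptor's own gene segments, which the choice of members did not use apart from *Trac*. Of 251 variable, diversity, joining and constant segments in the table, 117 had a read, and no diversity or joining segment had one. The alpha and beta variable segments summed to 297, 116 and 98.7 normalized counts in control tumors 1, 2 and 3 and to 128, 304 and 368 in FF-10101 tumors 1, 2 and 3. FF-10101 tumors 2 and 3 lay above every control tumor, FF-10101 tumor 1 lay under control tumor 1, and the log2 fold change was 0.69 (exact permutation test, two-sided p = 0.2). Leaving out tumor 1 of either group raised it (1.17 for the control and 1.15 for the treated tumor), and leaving out tumor 3 lowered it (0.38 and 0.39). A read was found for 60, 39 and 28 alpha and beta variable segments in the control tumors and for 40, 57 and 62 in the FF-10101–treated tumors, a number that also follows the reads available. The beta constant regions *Trbc1* and *Trbc2*, summed, held 1079.5, 557 and 602 in the control tumors and 504, 839 and 897 in the treated ones. The log2 fold change of the sum was 0.02 (exact permutation test, two-sided p = 1.0), or 0.32 when control tumor 1 was left out (p = 0.4 in the same exact test). Singly it was 0.26 ± 0.45 (SE) for *Trbc1* and −0.08 ± 0.26 (SE) for *Trbc2*, or 0.75 and 0.12 without control tumor 1. The sum was highest in control tumor 1 and lowest in FF-10101 tumor 1.

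**Figure D4:**
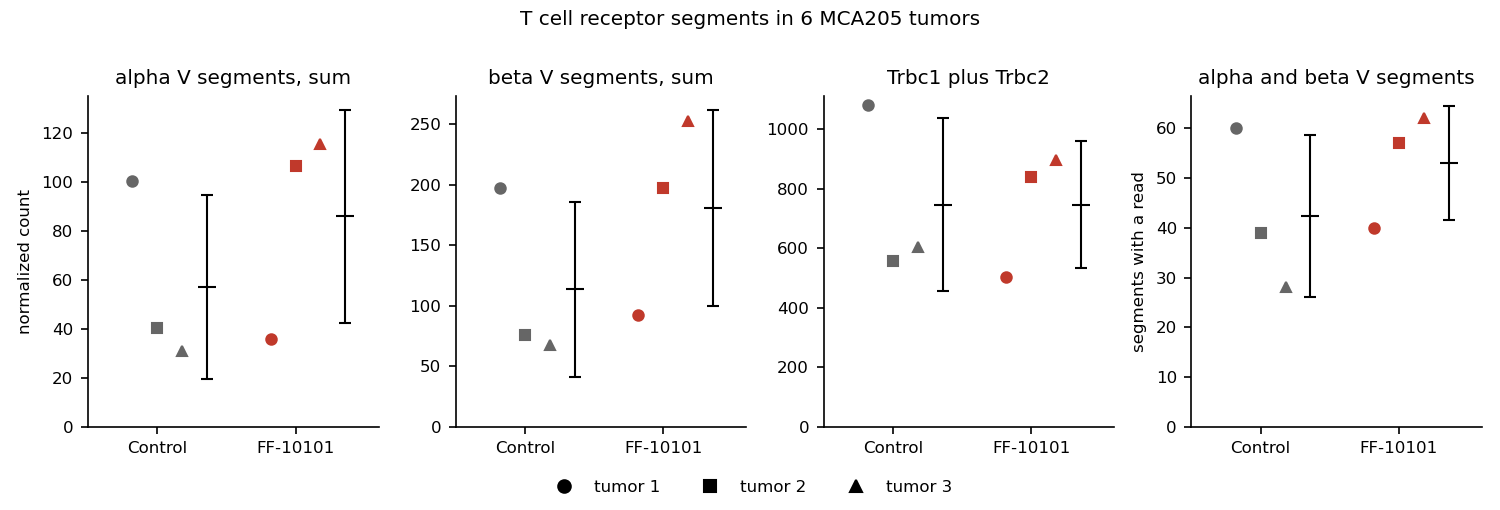
Summed normalized counts (vertical axes) of alpha variable segments, beta variable segments and the beta constant regions, and the number of alpha and beta variable segments with a read (right), in control (gray) and FF-10101–treated tumors (red) with mean ± SD. The groups overlap in every panel, and FF-10101 tumors 2 and 3 hold 304 and 368 normalized counts of variable segments together against 297 in control tumor 1.

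Constant regions of the gamma-delta lineage held fewer normalized counts than *Trac* in every tumor, without correction for length. *Trdc*, the delta constant region, held 58.5, 31.5 and 8.87 normalized counts in control tumors 1, 2 and 3 and 29.8, 36.9 and 41.8 in FF-10101 tumors 1, 2 and 3. The gamma constant regions *Tcrg-C1*, *Tcrg-C2* and *Tcrg-C4* stayed between 5.43 and 55.1, and *Tcrg-C4* was highest in FF-10101 tumor 3. *Tcrg-C3* held 4.44 in FF-10101 tumor 3 and 0 in the other tumors. *Trdc* had a log2 fold change of 0.46, *Tcrg-C2* of 0.35 and *Tcrg-C4* of 1.00, and none passed the test (limma, Benjamini-Hochberg adjusted p from 0.514 to 0.806). Without control tumor 1 these were 1.04, 0.625 and 1.36, and again none passed (limma, Benjamini-Hochberg adjusted p from 0.187 to 0.529).

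Genes that act next to the receptor were compared by lists, of which 0 genes passed an adjusted p of 0.05 in limma with 6 tumors. Of 29 genes of proximal signaling, all tested, 25 had a positive log2 fold change, and the median was 0.30. At an unadjusted p of 0.05, 2 were higher (8.77% of all genes) and 1 lower (7.49%). Without control tumor 1 the median was 0.62, and 14 were higher and 0 lower (limma, adjusted p of 0.05). In that fit 1678 of 13986 genes were higher and 1395 lower. *Prkcq*, the kinase that links the receptor to NF-κB, held 187, 59.8 and 37.7 normalized counts in the control tumors and 163, 182 and 203 in the FF-10101–treated tumors (log2 fold change 1.27 ± 0.52, SE; limma, Benjamini-Hochberg adjusted p = 0.293). *Sh2d2a*, an adaptor that binds LCK, had a log2 fold change of 1.13 ± 0.59 (SE), and *Themis*, a regulator of receptor signaling in T cells, of 1.35 ± 0.84 (SE). *Lat*, the adaptor that ZAP70 phosphorylates, held 205, 88.0 and 89.8 in the control tumors and 111, 109.7 and 148 in the treated ones, and its log2 fold change was 0.05 ± 0.35 (SE; limma, Benjamini-Hochberg adjusted p = 0.954). *Prkcq*, *Sh2d2a* and *Themis* passed without control tumor 1 (limma, Benjamini-Hochberg adjusted p = 0.00287, 0.00423 and 0.0404), whereas *Lat* did not (0.182).

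Of a list of 16 inhibitors of receptor signaling, which also holds *Ptprc*, a phosphatase that activates LCK as well, 10 had a positive log2 fold change with a median of 0.13, 0 were higher and 2 lower at an unadjusted p of 0.05 (8.77% and 7.49% of all genes), and the groups did not overlap in 3, *Csk*, *Dok1* and *Dok2*, all lower (9.37% of all genes). *Dok2*, an adaptor that dampens signaling in T cells and in myeloid cells, held 767, 737 and 663 normalized counts in the control tumors and 382, 376 and 418 in the FF-10101–treated tumors. The groups were well apart, with a log2 fold change of −0.88 ± 0.14 (SE; limma, Benjamini-Hochberg adjusted p = 0.175), and its direction was against that of all 10 members. *Cblb*, a ubiquitin ligase that restrains T cells, had a log2 fold change of 0.73 ± 0.36 (SE), and *Sla2*, which lowers receptor levels, of 0.79 ± 0.48 (SE). Without control tumor 1, 4 genes of the list were higher, *Ptprc*, *Cblb* and *Sla2* among them, and 2 lower, *Dok2* among them (limma, adjusted p of 0.05; 1678 and 1395 of 13986 genes).

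Costimulation and adhesion genes had positive log2 fold changes in 11 of 12, with a median of 0.29, or 0.86 without control tumor 1. With 6 tumors, 0 passed an unadjusted p of 0.05 (8.77% of all genes were higher and 7.49% lower). *Icos*, an inducible costimulator, held 394, 136 and 113 normalized counts in the control tumors and 248, 364 and 390.2 in the FF-10101–treated tumors (log2 fold change 0.84 ± 0.45, SE). *Cd28*, the main costimulator of naive T cells, had a log2 fold change of 0.75 ± 0.55 (SE), *Cd96* of 0.57 ± 0.67 and *Cd2* of 0.52 ± 0.37. Control tumor 1 was above the other control tumors in 11 of 12 of these genes, and 3 were higher without it (1678 of 13986 genes).

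Transcription factors of the T lineage had positive log2 fold changes in 11 of 12, with a median of 0.53, and 2 were higher at an unadjusted p of 0.05 (8.77% of all genes). *Satb1*, a chromatin organizer of T cells, held 341, 82.6 and 73.2 normalized counts in the control tumors and 256, 274 and 317 in the FF-10101–treated tumors (log2 fold change 1.13 ± 0.53, SE; limma, Benjamini-Hochberg adjusted p = 0.336). *Eomes*, a factor of cytotoxic T cells and NK cells, had a log2 fold change of 1.08 ± 0.45 (SE), *Tox* of 0.95 ± 0.92 and *Tcf7* of 0.27 ± 0.23. *Tox* rested on 2.22 to 48.4 normalized counts. Among 9 genes of naive and recirculating T cells, 8 were tested, 6 had a positive log2 fold change, with a median of 0.59, 2 were higher at an unadjusted p of 0.05 (8.77% of all genes), and the groups did not overlap in 2, *S1pr1* and *Lef1*, both higher (10.9% of all genes). *S1pr1*, the receptor for exit from lymphoid tissue that endothelial cells also express, had a log2 fold change of 1.16 ± 0.33 (SE), and *Il7r* of 1.298 ± 0.65. Without control tumor 1, 6 of the transcription factors and 5 of the recirculation genes were higher (limma, adjusted p of 0.05; 1678 of 13986 genes).

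Other cell types that express some of these genes varied across the same tumors. Of 9 NK cell markers, 8 had a positive log2 fold change, with sums of 1012 to 1575 normalized counts in the control tumors and 1278 to 2309 in the FF-10101–treated tumors. *Ncr1*, which defines NK cells, held 158, 63.0 and 58.8 in control tumors 1, 2 and 3 and 96.99, 158.5 and 157 in FF-10101 tumors 1, 2 and 3, with control tumors 2 and 3 the lowest. *Klrb1c*, the NK1.1 receptor, had a log2 fold change of 1.24 ± 0.59 (SE). *Cma1*, with the largest of this list at 1.80 ± 0.46 (SE), encodes a chymase of mast cells, and *Cpa3*, a carboxypeptidase of mast cells outside the list, had 1.79 ± 0.48 (SE). Without control tumor 1, 6 of the 9 NK cell markers, *Cma1* among them, were higher (limma, adjusted p of 0.05, against 1678 of 13986 genes). The sums of this list also include *Cma1*, at 48.9 to 73.2 normalized counts in the control and 137 to 474 in the FF-10101–treated tumors. Regulatory T cell markers were positive in 5 of 8, with sums of 1140.3 to 2129 in the control and 1272 to 2177 in the FF-10101–treated tumors. *Foxp3*, which defines them, held 159, 61.9 and 44.4 in the control tumors and 67.2, 112 and 95.1 in the FF-10101–treated tumors (log2 fold change 0.23 ± 0.46, SE), and *Tnfrsf4* and *Il2ra* had 0.55 ± 0.25 and 0.53 ± 0.34. When control tumor 1 was left out, the median of the list went from 0.13 to 0.56 and *Foxp3* to 0.76, and 1 of the 8 markers, *Tnfrsf4*, was higher (log2 fold change 0.77; limma, Benjamini-Hochberg adjusted p = 0.0269; 1678 of 13986 genes). Gamma-delta T cell markers were tested in 4 of 8, and all 8 summed to 76.5 to 178 and 122 to 199.99, with *Il17a* at 0 in all tumors. All 4 were positive, with a median log2 fold change of 0.68, or 1.10 without control tumor 1. The groups did not overlap in 1, *Sox13*, which was higher (10.9% of all genes), at 0.89 ± 0.36 (SE). *Sox13* passed without control tumor 1 (limma, Benjamini-Hochberg adjusted p = 0.036, against 1678 of 13986 genes).

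Pan-macrophage markers were positive in 2 of 9 and summed to 64397 in control tumor 1, 36198 and 36429 in control tumors 2 and 3, and 23622 to 32870 in the treated ones, with *Adgre1* at a log2 fold change of −0.95 ± 0.22 (SE). The groups did not overlap in 4 of the 9, all lower (9.37% of all genes). The median log2 fold change of the list was −0.25 with 6 tumors and 0.14 without control tumor 1, where 1 marker was higher and 2 lower (limma, adjusted p of 0.05; 1678 and 1395 of 13986 genes). Type 1 conventional dendritic cell markers were positive in 3 of 8, with 4001 in control tumor 1 against 1569.6 to 2514 in the other 5 tumors. Type 2 conventional dendritic cell markers were positive in 3 of 7 (1294.5 to 1906 in the control and 721 to 1732 in the treated tumors) and plasmacytoid dendritic cell markers in 5 of 7 (1501 to 2036 and 2291 to 2467). Most of the latter sum was *Tcf4*, a transcription factor that other cell types also express (1373 to 1797 and 2036 to 2349), whereas *Siglech*, which defines these cells, overlapped between the groups (25.0 to 27.0 and 22.8 to 59.6). Without control tumor 1 the medians turned from −0.08 to 0.39 for type 1 and from −0.17 to 0.13 for type 2. Neutrophil markers were positive in 6 of 7 tested, with a median log2 fold change of 1.32, above that of the members. All 8 of the list summed to 2000.0 to 2323 in the control and 2956 to 3397 in the treated tumors. Of the 7, 4 were higher at an unadjusted p of 0.05 (8.77% of all genes), and the groups did not overlap in 3, *S100a8*, *S100a9* and *Cxcr2* (10.9% of all genes), with 2.30 ± 0.30 (SE) for *Cxcr2* (limma, Benjamini-Hochberg adjusted p = 0.0813). Without control tumor 1 the median was 2.05 and 5 were higher (limma, adjusted p of 0.05; 1678 of 13986 genes). Fibrosarcoma and mesenchymal markers were positive in 7 of 8 (94759 to 201890 and 151420 to 224810). The part of any of these cells in the members' values was not tested.

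Markers of lymphoid and neighboring tissue differed widely between tumors. All 10 B cell markers summed to 378 to 781 normalized counts in the control and 347.5 to 639.98 in the FF-10101–treated tumors. Only 3 of them were tested, and the median log2 fold change of these, −0.20, was 0.21 without control tumor 1. Of 4 thymocyte markers 0 were tested, and *Rag1* and *Rag2* were at 0 in every tumor. Lymph node stroma markers were tested in 3 of 7, and all 7 summed to 18.5 to 114 in the control tumors and to 1589, 999 and 116 in FF-10101 tumors 1, 2 and 3. Most of that was *Ccl21a* (923 in FF-10101 tumor 1, 597 in FF-10101 tumor 2) and its near copy *Ccl21b*, chemokine genes of lymphatic and lymph node tissue. FF-10101 tumor 1, with the most of it, was the lowest treated tumor in all 10 members. Keratinocyte markers reached 969 in FF-10101 tumor 1 against 32.0 to 175 in the other tumors. Skeletal muscle markers (2503 to 5309 in the control and 2428 to 8235.5 in the treated tumors) and adipocyte markers (249.9 to 517 and 263 to 1171.5) overlapped between the groups.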

How the data were processed

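The authors trimmed reads with fastp (version 0.19.5), quantified them with Salmon (version 1.5.1) on GENCODE vM27 (GRCm39) and tested genes with DESeq2 (version 1.22.1). The deposited values are log2 values, 1 per gene and tumor, shaped by a variance-stabilizing transformation. The inverse gave whole reads for 100% of 325854 values (largest gap 2.5e-09) and a size factor per tumor. The library kit is not stated to keep strand, and Salmon splits reads of near copies by estimation. Total reads were 9643535, 9143806 and 9186789 in the control and 13258258, 9277019 and 11513555 in the FF-10101–treated tumors.

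Normalized counts (reads over size factor) were compared on log2(normalized count + 1), which understates changes of low genes, with limma (version 3.58.1, R version 4.3.3, trend, with group as the only term) over the 13963 genes averaging 10 or more, and p values were adjusted by Benjamini-Hochberg. The script was tested on simulated data. Single values were compared by exact permutation tests. Symbols came from GENCODE vM21 (GRCm38), which named 51484 of 54309 identifiers. Exon overlaps, lengths and copies (BLAST version 2.17.0, at least 97% identity) came from that annotation, and no coordinates on GRCm39 are given. Members, lists and tests were chosen with earlier results of these data known. Besides all members and constant regions, the genes named are the 3 of each list with the largest absolute log2 fold change and its defining marker, of which those that bear on a result are given, and the 8 genes most correlated with the members; *Pou2f1*, *Srp72*, *Cpa3*, *Csk*, *Dok1* and *Lef1* and the variable segments were named after their values were seen. The values of 2 of the named genes are not reported here. Alternatives were pseudocounts of 0.5 and 10, other minimum counts, 75th percentile scaling, the deposited values, limma-voom, array weights, a replicate block and each tumor left out.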

Additional observations from a re-analysis of the deposited data

How the results depend on the processing

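The number of members past an adjusted p of 0.05 was 0 with 6 tumors under pseudocounts of 0.5 and 10, without a minimum count, with a minimum mean of 50, under 75th percentile scaling, the deposited log2 values and limma-voom. It was 10 with array weights, which rest mostly on control tumor 2 and FF-10101 tumor 2. With 1 tumor left out it ranged from 0 to 4, with 4 only without control tumor 1, and the number of members whose groups do not overlap ranged from 0 to 5, where the 5 came from leaving out control tumor 1 and 2 from leaving out FF-10101 tumor 1. Over all genes, 6 passed, as against 17 without a minimum count, 3 with a minimum mean of 50 and 8365 with array weights, and from 1 (without control tumor 2) to 3073 (without control tumor 1) with 1 tumor left out, with 3 without control tumor 3 or FF-10101 tumor 2. The replicate numbers did not pair the tumors (correlations of same-numbered deviations −0.288, −0.04 and −0.277). With the number as a block, 1 gene passed and 0 members did (adjusted p from 0.574 to 0.852).

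Leaving out 1 tumor turned the sign of 4 member log2 fold changes: *Cd3d* (from −0.11 without control tumor 2 to 0.77 without control tumor 1), and *Trac* (−0.10 to 0.90), *Lck* (−0.012 to 0.69) and *Zap70* (−0.018 to 0.97), each lowest without control tumor 3 and highest without control tumor 1. The other members ranged from 0.21 to 1.07 (*Cd3e*), 0.010 to 0.94 (*Cd3g*), 0.042 to 0.71 (*Cd247*), 0.11 to 0.77 (*Cd4*), 0.68 to 1.81 (*Cd8a*) and 0.68 to 2.13 (*Cd8b1*), lowest without FF-10101 tumor 3 for *Cd247* and without control tumor 3 for the rest, and highest without FF-10101 tumor 1 for *Cd247* and *Cd4* and without control tumor 1 for the rest. The sum of all receptor segments ranged from −0.0097 (without control tumor 3) to 0.58, with −0.0022 without FF-10101 tumor 3. That of *Trbc1* and *Trbc2* ranged from −0.16 (without control tumor 2) to 0.32 (without control tumor 1), and it was also negative without control tumor 3 (−0.10), FF-10101 tumor 2 (−0.085) or FF-10101 tumor 3 (−0.13). Log2 ratios over *Cd3e* ranged from −0.20 to 0.0013 for *Cd3g*, −0.52 to 0.076 for *Cd247*, −0.53 to 0.13 for *Cd4* and −0.30 to 0.045 for *Zap70*, which also turned (0.041) without FF-10101 tumor 2. Without turning, *Trac* over *Cd3e* ranged from −0.31 to −0.06, *Cd8b1* over *Cd8a* from 0.0071 to 0.31 and *Cd3e* over *Ptprc* from 0.035 to 0.33. The cause was not tested. With 3 tumors a group and wide spread between control tumors, differences of the size seen for most members could not be told from 0.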

Other observations

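Use of beta variable segments differed between tumors. *Trbv12-1* took 71 of 284 beta variable reads in FF-10101 tumor 3, or 25.0% (95% exact binomial interval 20.1% to 30.5%), and 31 of 182, or 17.03% (11.9% to 23.3%), in FF-10101 tumor 2, and it was the most used segment in both. It took 9.92% in FF-10101 tumor 1 and 4.57% in control tumor 1, and had 0 reads in control tumors 2 and 3, where only 70 and 61 beta variable reads were found. *Trbv13-1* was the most used segment in control tumor 1 (34 of 175 reads, 19.4%, interval 13.8% to 26.1%) and FF-10101 tumor 1 (16 of 121 reads, 13.2%, interval 7.75% to 20.6%), and *Trbv3* in control tumors 2 and 3 (16 and 10 reads). The intervals cover counting error only, related segments share reads, and no test between the groups was made.

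The genes whose values over the 6 tumors were most like the mean of the members were *Entpd1*, *Ptafr*, *Ctss*, *Kdm4c*, *P2rx4*, *Acer3*, *Sqor* and *Acvrl1*, with Pearson correlations of 0.994 to 0.999. *Entpd1*, the ectonucleotidase CD39, held 2029.6, 757 and 644 normalized counts in control tumors 1, 2 and 3 and 944, 1559 and 1832 in FF-10101 tumors 1, 2 and 3. *Ctss*, a lysosomal protease of antigen-presenting cells, held 26856, 10266 and 8592 in the control tumors and 13229, 22995 and 26118 in the FF-10101–treated tumors. The 6 points share their libraries, and the correlation was used to choose these genes. Among the members, *Cd3e* was closest to the mean of the other 9 (0.997) and *Cd4* farthest from it (0.797).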
